A study of Rattus norvegicus with 24 samples.

Results

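The genes described here are 43 genes of DNA replication and S phase: the MCM helicase and its partners, origin licensing factors, polymerases, the sliding clamp and its loader, and the enzymes of deoxynucleotide supply. They were taken as a fixed list of names, which was chosen with earlier results of these data known. Their shares beside those of all probe sets are for that reason descriptions only. Of the 43 genes, 40 had a probe set with 1 gene symbol, and 38 were measured, each by its brightest such probe set with a mean at or above the 40th percentile of all probe sets, among 10643 genes measured in all. Orc1 (mean 5.04) and Chaf1b (mean 5.93) fell below that limit of 6.19 on the log2 scale, and Pole (6.35) and Uhrf1 (6.39) lay just above it. Pole and Uhrf1 were under the limit in the day 14 controls (5.89 and 5.86) and passed through higher values in other groups, so counts over the 38 genes start from a set that such values helped to form. Cdc6 and Gins2 had no probe set of their own symbol, and Rrm2 only probe sets shared with another symbol, so no value is given for these 3 genes.

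RNA from the thyroids of male adult Sprague-Dawley rats was measured on 24 arrays, in 8 groups of 3. After 2 months of housing plus 1 or 14 days, rats had a normal diet and normal water (control), an iodine-deficient diet and normal water (diet), a normal diet and perchlorate water (perchlorate), or the iodine-deficient diet and perchlorate water (both). Perchlorate was given for the 1 or 14 days as 95 mg of the potassium salt per liter, while the diet ran through the whole period. Each value is log2(intensity + 16) after quantile normalization, on which scale the change of dim probe sets is understated, and each ± is an SD (n = 3). The labels do not say whether the 3 arrays of a group came from separate animals. The p-values therefore reflect the scatter of these samples alone, some of which may be technical. That scatter was pooled over all 8 groups, so tests at day 14 also carry the spread of day 1. The median SD of the measured genes was 0.317 with the diet and 0.419 with perchlorate at day 1. It was 0.142 to 0.198 in the groups of day 14. The question put by the design is how iodine deficiency and perchlorate, alone or together, changed expression in the gland.

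Replication starts when the origin recognition complex, Cdc6 and Cdt1 load the MCM2-7 ring on DNA. Cyclin E kinase and the E2F transcription factors then drive entry into S phase, when Cdc45 and the GINS complex join the ring and make it an active helicase. Primase and polymerase alpha start each strand, polymerases delta and epsilon extend it on the clamp PCNA, and Fen1 and Lig1 join the fragments of the lagging strand. Iodide shortage raises thyrotropin in blood, and thyrotropin is known to drive growth of the gland.

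Array medians before normalization ran from 6.63 to 7.19, and correlations between arrays of a group were 0.851 at the lowest. Perchlorate replicate 18 of day 1 stood apart from the other arrays, with a median absolute deviation of 0.675 over all probe sets against 0.13 to 0.287 in the others. Control replicate 22 of day 1, at 0.287, was the next. The follicular cell markers were present in every array: the 10 measured of 12 summed to between 50900 and 63600 units of normalized intensity, with thyroglobulin among them.

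At day 14 in rats given both the deficient diet and perchlorate, 9 of the 38 measured genes rose against the control and 0 fell, at an adjusted p under 0.05 over all probe sets tested. The 9 were Uhrf1, Gins1, Cdt1, Mcm3, Mcm5, Mcm6, E2f1, Ccne1 and Cdc45, with log2 fold changes from 0.778 to 1.60. Of all 18625 probe sets tested 6.1% were called higher in the same comparison (8.85% in either direction), against 23.7% of the 38 genes. The median log2 fold change over the 38 genes was 0.41, with 33 positive, while the median of all probe sets was -0.064 and 41.7% of them were positive. The size of the count rested on single arrays. It was 1 without replicate 27 of the combined treatment or replicate 47 of the control, and 3 without replicate 30 or control replicate 44. It was 4 without control replicate 43, and 10 without replicate 29. The share of all probe sets called in these fits is not given here. Only the call of Gins1 held without each of the 6 arrays in turn; that of Mcm5 ended without replicate 27 or control replicate 47, that of Mcm3 without these or control replicate 44, and each of the others without 4 or 5 of the 6 arrays. In a piece of whole gland, more dividing cells and more RNA of these genes per cell cannot be told apart.

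**Figure D1:**
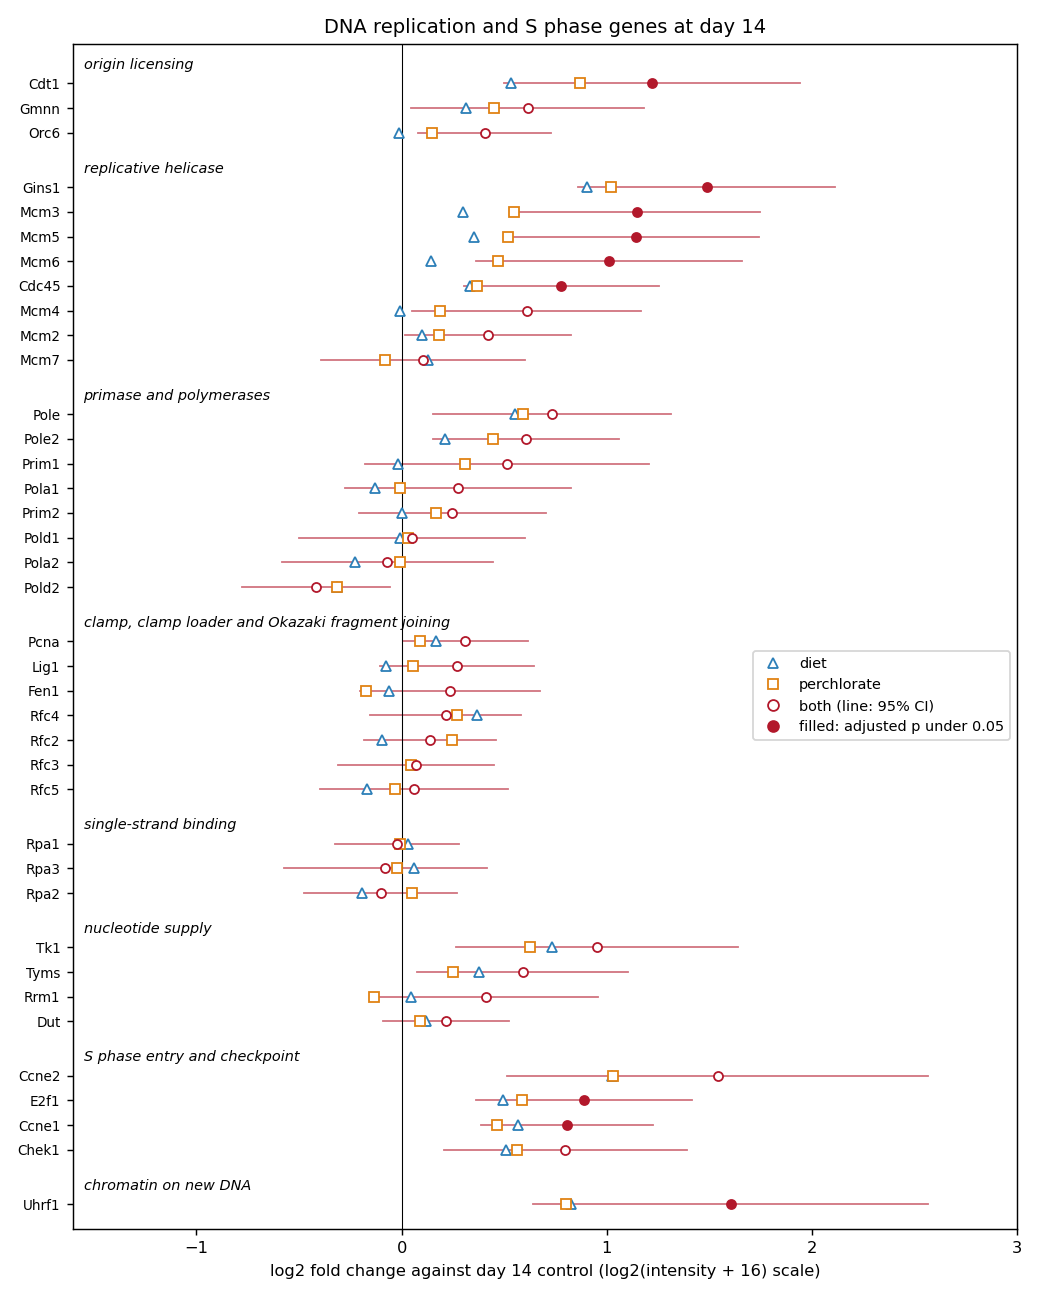
Log2 fold change of each of the 38 measured genes against the day 14 control, ordered by role, for the diet (triangles), perchlorate (squares) and both (circles, with the 95% confidence interval of the limma fit). Filled symbols passed an adjusted p of 0.05, which only 9 circles did. The circles of the single-strand binding genes and clamp loader genes lie between -0.10 and 0.21, and Rfc4 is at 0.37 with the diet.

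Within the replicative helicase, 5 of 8 measured genes rose with the combined treatment at day 14. Gins1, a subunit of the GINS complex, was at 8.48, 7.79 and 8.20 in the 3 arrays with both treatments and at 6.37, 6.38 and 7.26 in the controls. All 3 treated arrays lay above all 3 control arrays, and Gins1 rose by 1.49, or 2.80-fold (SE 0.30, adjusted p = 0.00316). The Gins1 call held under all 15 alternatives of processing or left-out arrays, with a highest adjusted p of 0.0285. The day 14 controls were themselves lower for Gins1 than the day 1 controls, which stood at 7.36 ± 0.42, a difference of -0.69 that did not pass the test (adjusted p = 1.00).

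Mcm3, a subunit of the ring, was at 8.59, 7.99 and 8.12 with both treatments against 7.31, 7.02 and 6.92 in the controls, and rose by 1.15 (SE 0.29, adjusted p = 0.0133). Mcm5, which closes the ring beside Mcm2, was at 9.06, 8.25 and 8.52 against 7.52, 7.63 and 7.25, and rose by 1.14 (SE 0.29, adjusted p = 0.0143). Mcm6 was at 9.03, 8.33 and 8.57 against 7.65, 7.65 and 7.61, a rise of 1.01 (SE 0.31, adjusted p = 0.0461). In each of these 3 genes replicate 27 gave the highest value and the groups did not overlap. Without replicate 27 the rises were 0.971, 0.92 and 0.818 and none passed the test (adjusted p = 0.0947, 0.109 and 0.223).

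Cdc45, which joins MCM and GINS in the active helicase, was at 8.81, 8.23 and 8.42 against 7.83, 7.83 and 7.48 and rose by 0.78 (SE 0.23, adjusted p = 0.0358). A second probe set of Cdc45 was at 0.48 (adjusted p = 0.426) and was not called. The other subunits of the ring did not pass: Mcm4 was at 0.61 (adjusted p = 0.183) and Mcm2 at 0.42 (adjusted p = 0.208). Mcm7 was at 0.10, with a 95% confidence interval of -0.39 to 0.60, and its treated arrays (9.57, 9.25 and 9.54) overlapped the controls (9.56, 9.36 and 9.12). The 6 subunits of the ring, which act in equal numbers, were measured at log2 fold changes from 0.10 to 1.15 on their probe sets.

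**Figure D2:**
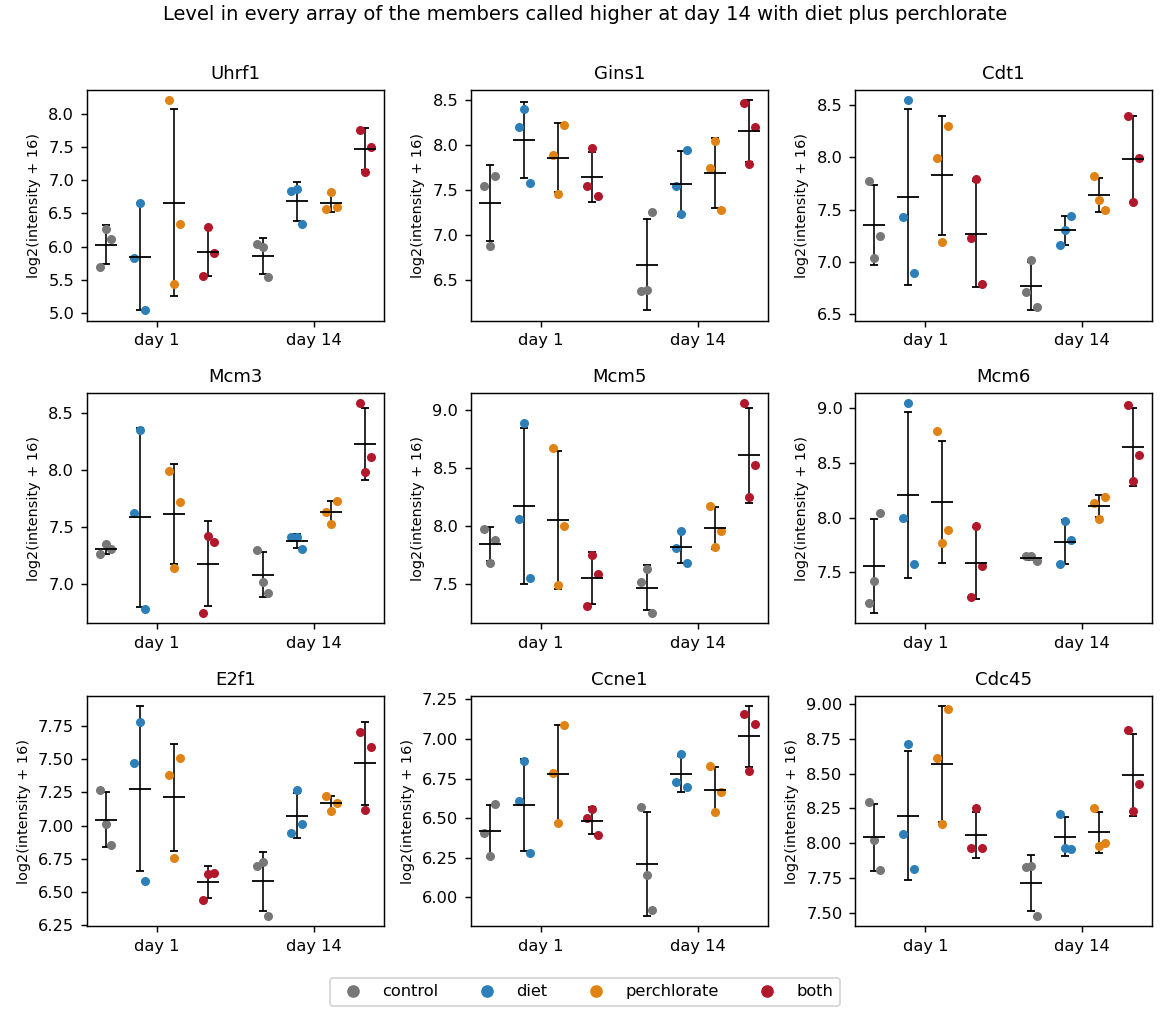
Log2(intensity + 16) in every array for the 9 genes called higher at day 14 with both treatments, by group, with the mean and SD of 3 arrays (bars). At day 14 the red points (both) lie above all grey points (control) in each gene. At day 1 some arrays reach that level, such as a perchlorate array for Uhrf1, and a diet array and a perchlorate array for Mcm6. The red E2f1 points of day 1 lie below the grey ones.

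The stretches just upstream of the start sites are shown for 3 helicase genes that rose and for Mcm7, which did not pass, because promoters of S phase genes often carry sites for E2F factors. A form of that site, TTTNGCGC, was searched on both strands from 250 bases before to 50 bases after the start of each gene (sequences from RefSeq, build GRCr8). It occurred in 15 of the 36 genes of the list that had a promoter there, or 41.7%, against 397 of 27457 genes, or 1.45%, in the whole table. Among the 9 genes that rose, 8 had a promoter in the table and 6 of them a match (Cdt1, Gins1, Mcm3, Mcm5, Mcm6 and 1 of 3 starts of Uhrf1). Among measured genes that were not called, 9 of 26 had a match. A match is a description of letters and not evidence of binding, and no test was made of these shares. CCAAT, searched in the same way, was in 20 of the 36 genes (55.6%) against 39.6% of all, and in 6 of the 8 genes that rose and 13 of the 26 that were not called.

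The 250 bases before each start are given 5′ to 3′ on the gene's strand, with TTTNGCGC matches of either strand in capitals. They lie at chr3:160184670-160184919 (plus strand) for Gins1, chr19:13488563-13488812 (plus) for Mcm5, chr13:42404353-42404602 (minus) for Mcm6 and chr12:22163179-22163428 (minus) for Mcm7.
Gins1: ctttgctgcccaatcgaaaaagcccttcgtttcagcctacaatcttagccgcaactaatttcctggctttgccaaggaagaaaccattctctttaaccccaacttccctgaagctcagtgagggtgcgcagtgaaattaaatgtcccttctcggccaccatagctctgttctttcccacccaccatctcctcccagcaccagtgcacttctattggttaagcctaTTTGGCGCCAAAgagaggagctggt
Mcm5: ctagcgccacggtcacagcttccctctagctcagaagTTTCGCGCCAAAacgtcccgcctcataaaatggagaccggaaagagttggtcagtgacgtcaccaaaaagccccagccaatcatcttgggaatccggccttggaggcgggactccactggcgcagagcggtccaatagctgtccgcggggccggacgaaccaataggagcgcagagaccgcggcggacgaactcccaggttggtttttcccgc
Mcm6: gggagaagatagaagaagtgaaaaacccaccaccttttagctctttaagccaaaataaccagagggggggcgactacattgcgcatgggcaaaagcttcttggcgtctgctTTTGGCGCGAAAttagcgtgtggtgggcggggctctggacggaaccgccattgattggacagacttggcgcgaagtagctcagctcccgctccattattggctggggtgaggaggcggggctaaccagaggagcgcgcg
Mcm7: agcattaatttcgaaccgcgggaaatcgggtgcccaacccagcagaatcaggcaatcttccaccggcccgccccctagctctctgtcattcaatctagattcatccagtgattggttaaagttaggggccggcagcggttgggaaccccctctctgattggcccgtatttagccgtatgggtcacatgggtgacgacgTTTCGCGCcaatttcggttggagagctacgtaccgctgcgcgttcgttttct
In Gins1, Mcm5 and Mcm6 the capitals join 2 overlapping matches, 1 on each strand, starting 25, 213 and 139 bases before the start. Mcm7 has 1 match, starting 52 bases before the start. The genes shown do not mark a split of the helicase genes by call. Mcm2, which was not called, also has 2 overlapping matches, starting 14 bases before the start. Of the genes that rose, Cdc45 has no match and Mcm3 has 1, after the start.

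Of the origin licensing genes, 1 of 3 measured rose. Cdt1, which brings MCM to origins, was at 8.39, 7.57 and 7.99 with both treatments at day 14 against 6.71, 7.02 and 6.57, and rose by 1.22 (SE 0.35, adjusted p = 0.0299). Without replicate 27 the Cdt1 rise was 1.01 and did not pass (adjusted p = 0.164). Geminin, Gmnn, the inhibitor that binds Cdt1, was at 0.62 (adjusted p = 0.187), with treated arrays at 7.58, 7.52 and 7.52 and controls at 7.37, 6.48 and 6.92. Orc6, a subunit of the origin recognition complex, was at 7.87, 7.80 and 7.79 against 7.62, 7.17 and 7.45, a difference of 0.41 (adjusted p = 0.118). In both of these genes the arrays did not overlap although the test was not passed.

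The genes of S phase entry stood together on the higher side, and 2 of 4 rose. E2f1, the transcription factor that turns on many genes of this list, was at 7.70, 7.11 and 7.59 against 6.70, 6.72 and 6.32, and rose by 0.89 (SE 0.25, adjusted p = 0.0293). Cyclin E1, Ccne1, was at 7.16, 6.80 and 7.09 against 6.57, 6.14 and 5.92, and rose by 0.80 (SE 0.20, adjusted p = 0.0136). Both groups stayed apart in every array for these genes, and both calls ended without replicate 27 (E2f1 at 0.772, adjusted p = 0.146; Ccne1 at 0.733, adjusted p = 0.0771). Cyclin E2, Ccne2, had a larger difference, 1.54 (8.81, 8.58 and 8.04 against 7.04, 7.49 and 6.29), and did not pass (SE 0.49, adjusted p = 0.0561). Its SE draws on the spread in all 8 groups. The SD of Ccne2 was 0.39 with both treatments and 0.61 in the controls at day 14. At day 1 it was 1.05 with the diet and 1.23 with perchlorate. A second probe set of Ccne2 stood at -0.27 (adjusted p = 0.537), so the 2 probe sets differ in sign. The checkpoint kinase gene Chek1 was at 0.80 (adjusted p = 0.0899).

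Uhrf1, which brings the maintenance methyltransferase to newly copied DNA, was at 7.76, 7.13 and 7.51 against 6.04, 6.0 and 5.54. Its rise of 1.60, or 3.04-fold (SE 0.46, adjusted p = 0.0321), was the largest log2 fold change of the 38 genes in this comparison. Without replicate 27 it was 1.46 and did not pass (adjusted p = 0.136). The Uhrf1 mean lay under the filter limit of 6.19 in the controls of day 1 (6.03) and day 14 (5.86). At day 1 it was also under that limit with the diet (5.85) and with both treatments (5.92).

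In nucleotide supply 0 of 4 measured genes were called on their brightest probe sets (median 0.50). Thymidine kinase, Tk1, was at 8.29, 7.42 and 7.87 against 6.88, 7.07 and 6.77, a difference of 0.95 (SE 0.33, adjusted p = 0.0795). A second, slightly dimmer probe set of Tk1 did pass, at 1.05 (adjusted p = 0.0174). Thymidylate synthase, Tyms, was at 7.73, 7.44 and 7.66 against 7.46, 6.97 and 6.62, a difference of 0.59 (adjusted p = 0.157) with overlap at control replicate 43. The large subunit of ribonucleotide reductase, Rrm1, was at 0.41 (adjusted p = 0.405) and the dUTPase gene Dut at 0.21 (adjusted p = 0.443).

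None of the 18 measured genes for primase and polymerases, for the clamp, its loader and fragment joining, and for the single-strand binding protein RPA was called with both treatments at day 14. The 2 subunits of polymerase epsilon were the highest of the polymerase genes: Pole at 0.74 (adjusted p = 0.113) and Pole2 at 0.61 (adjusted p = 0.0921). Pole2 was at 7.95, 7.62 and 7.71 against 7.12, 7.13 and 7.21 and did not overlap, while Pole (6.80, 6.37 and 6.71 against 6.34, 5.79 and 5.55) was apart by a narrow margin. The polymerase delta subunits did not follow: Pold1 was at 0.051 (95% confidence interval -0.50 to 0.60) and Pold2 at -0.42 (adjusted p = 0.153), the lowest of the 38 genes.

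The clamp gene Pcna, often used as a marker of proliferation, was at 12.35, 12.23 and 12.18 with both treatments and at 12.17, 11.86 and 11.80 in the controls. Its arrays did not overlap, but the difference was 0.31 (SE 0.15, adjusted p = 0.22), with a 95% confidence interval of 0.0068 to 0.62. The 4 clamp loader genes lay between 0.059 (Rfc5) and 0.21 (Rfc4) on their brightest probe sets. A second probe set of Rfc5 was at -0.24 (adjusted p = 0.653), opposite in sign. DNA ligase 1, Lig1, was at 9.72, 9.71 and 9.82 against 9.37, 9.63 and 9.44, a difference of 0.27 (adjusted p = 0.421), and the flap endonuclease gene Fen1 was at 0.24. The 3 RPA genes lay between -0.10 and -0.022. Rpa2 was at 7.64, 7.75 and 7.34 against 7.61, 7.75 and 7.67, and Rpa3 at 9.71, 9.91 and 9.54 against 10.12, 9.62 and 9.66. RPA also acts in DNA repair, and polymerase delta and the clamp loader serve it too. Whether this bears on the levels of these genes was not tested.

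Either treatment alone at day 14 gave 0 calls among the 38 genes. With perchlorate 29 of the 38 were positive (median 0.22, lowest adjusted p = 0.0653, that of Gins1). An unadjusted p under 0.05 was found for 6 of the 38, near the share of all probe sets (2684 of 18625). Over all probe sets 3.57% were called and the median was -0.043. With the diet 26 were positive (median 0.12, lowest adjusted p = 0.252), and 0.22% of all probe sets were called. Here 3 of the 38 had an unadjusted p under 0.05, against 1772 of the 18625 probe sets. Gins1 was at 7.74, 8.05 and 7.28 with perchlorate and at 7.54, 7.23 and 7.95 with the diet, against 6.37, 6.38 and 7.26 in the controls. The perchlorate arrays lay above all controls, with replicate 42 only just so, and 1 diet array fell within the control range. Its log2 fold changes were 1.02 (SE 0.30) and 0.90 (SE 0.30, adjusted p = 0.252). Averaged over both days, the diet effect on Gins1 was 0.80 (adjusted p = 0.0732), and 0 of the 38 genes were called where 1.03% of all probe sets were.

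The 9 genes that rose with both treatments ran from 0.144 (Mcm6) to 0.904 (Gins1) with the diet and from 0.365 (Cdc45) to 1.02 with perchlorate, all positive. These comparisons share the day 14 controls. Groups did not overlap, on the higher side, for 13 of the 38 genes with the diet (10.6% of all probe sets), 14 with perchlorate (12.6%) and 23 with both (16.2%). On the lower side it was 1 gene in each, against 11.2%, 13.4% and 20.7%. The order of the 4 group means at day 14 had the control lowest and both treatments highest in 21 of the 38 genes, against 15.8% of all probe sets. At day 1 the same order held for 1 of the 38, against 7.04%.

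No gene of the list was called between treated groups at day 14. Both against diet alone had a median of 0.29 over the 38 genes, 33 of them positive, with a lowest adjusted p of 0.331, and the arrays with both treatments lay above those of the diet in 12 genes (11.7% of all probe sets). Mcm3, Mcm5 and Mcm6 stood at 0.85, 0.79 and 0.87 there, with all 3 arrays above those of the diet, and did not pass (adjusted p = 0.331, 0.392 and 0.389). Both against perchlorate alone had a median of 0.23 and 0 calls, and perchlorate against diet a median of 0.068 and 0 calls. Of all probe sets 0.209%, 0.00537% and 0.00537% were called in these 3 comparisons. The interaction of diet and perchlorate asks whether the joint effect differs from the sum of the 2 on the log2 scale. It had a median of 0.033 over the 38 genes, and 0.0161% of all probe sets were called. An unadjusted p under 0.05 was found for 0 of the 38 genes, against 580 of all 18625 probe sets.

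**Figure D3:**
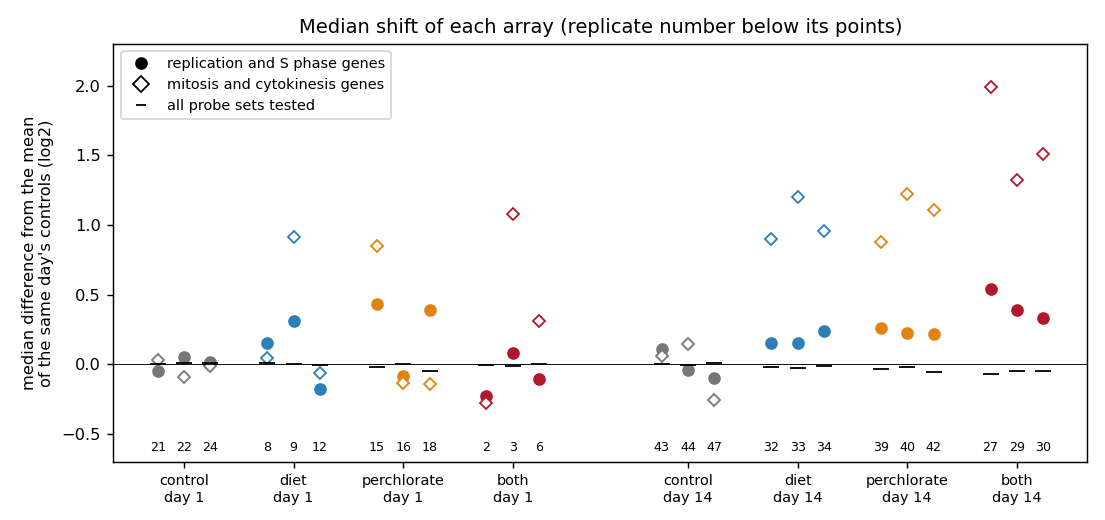
Median over the 38 replication and S phase genes (filled circles), the 35 mitosis genes (open diamonds) and all probe sets tested (dashes) of each array's difference from the mean of the same day's controls, in log2 units. At day 14 each treated array lies above each control for both gene groups, and at day 1 the arrays of a treated group fall on both sides of 0.

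At day 1 no gene of the list was called in any treated group. The median SD of the 38 genes was 0.317 with the diet and 0.419 with perchlorate, against 0.213 in the controls and 0.165 with both; over all probe sets it was 0.194, 0.445, 0.231 and 0.186. The median over the 38 genes was 0.15 with the diet (0.0537% of all probe sets called, either direction), 0.21 with perchlorate (0%) and -0.062 with both (0.601%). The lowest adjusted p of the 38 genes was 0.644, 0.453 and 0.347, and 2, 3 and 3 genes had an unadjusted p under 0.05. Of all 18625 probe sets 1090, 1888 and 1975 had one. In the diet group, replicate 9 was the highest of 3 arrays in 27 of the 38 genes and replicate 12 the lowest in 29. Mcm6 was at 9.04 in replicate 9 and at 7.99 and 7.57 in replicates 8 and 12, and Cdt1 was at 8.55 against 7.43 and 6.89. The day 14 arrays with both treatments had Mcm6 at 8.33 to 9.03, a level reached at day 1 by diet replicate 9 and by perchlorate replicate 15 (8.79). For Cdt1 they stood at 7.57 to 8.39, and arrays of every day 1 group reached that level, control replicate 22 (7.77) among them.

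In the perchlorate group of day 1, replicate 15 had Uhrf1 at 8.20 against 5.44 and 6.35 in replicates 16 and 18, and Mcm6 at 8.79 against 7.77 and 7.88. The lymphocyte markers, 5 measured of 16, summed to 10700 in replicate 15 and 4230 in replicate 18, against 760 to 1340 in the other 10 arrays of day 1. The thymocyte markers, 2 measured of 7, summed to 5220 in replicate 15 against 733 to 1390 in the other 11. Immature T cells divide fast, and the part of such cells in the values of replicate 15 was not tested. Replicate 18 was high in Cdc45 (8.96) and Cdt1 (8.30), with the mitosis genes at -0.141 from the day 1 controls. Without replicate 18 and control replicate 22 the count of called genes at day 1 was 0 for the 3 treatments. At day 14 it was 13 with both treatments and 1 with perchlorate. The share of all probe sets called in that fit is not given here.

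With the combined treatment at day 1, the median shift of the 38 genes from the controls was -0.228, 0.0783 and -0.106 in replicates 2, 3 and 6. Of the 38 genes 24 were negative and 14 positive, and 8 did not overlap on the lower side (9.76% of all probe sets). At day 1 the 9 genes lay between -0.47 (E2f1) and 0.29 (Gins1) against their control. At day 14 all lay at 0.778 or more, but they were picked by their calls in that comparison. Such a choice favors a wide gap between the days in these genes. E2f1 was at 6.44, 6.64 and 6.65 in the 3 day 1 arrays with both treatments, below the controls at 7.27, 7.01 and 6.86. The difference between the effects of the 2 days was 1.36 for E2f1 (SE 0.36, adjusted p = 0.198), 1.44 for Mcm5 (SE 0.41, adjusted p = 0.241) and 1.72 for Uhrf1 (SE 0.65, adjusted p = 0.399). It was positive in 35 of the 38 genes (median 0.51), and 0 were called, as were 0% of all probe sets. An unadjusted p under 0.05 was found for 14 of the 38, against 1625 of all 18625 probe sets. For perchlorate the same difference had a median of 0.091, with 0 of 38 called against 0.553% of all probe sets, and for the diet 0.044 with 0 called (0%). The untreated controls of day 14 against day 1 had a median of -0.081 over the 38 genes, 30 of them negative and 0 called (0% of all probe sets). Of the 9 genes, all but Mcm6 (7.64 against 7.56) had a lower control mean at day 14 than at day 1. Examples are Cdt1 (6.77 against 7.35), E2f1 (6.58 against 7.05) and Mcm5 (7.47 against 7.85). A choice by calls against the day 14 controls also favors genes with low values there.

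**Figure D4:**
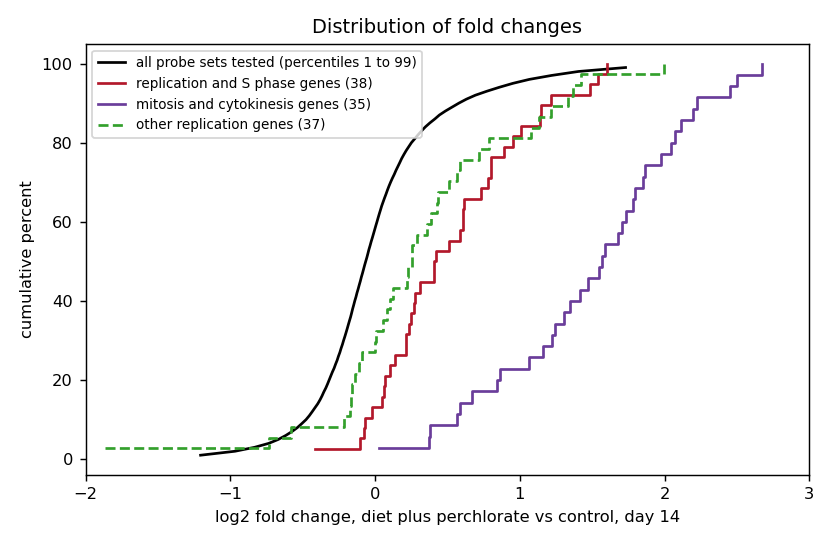
Cumulative percent of log2 fold changes with both treatments at day 14, for all probe sets tested (black), the 38 replication and S phase genes (red), 37 other replication genes (green, dashed) and 35 mitosis genes (purple). The red curve lies to the right of the black one except at its upper end, and the purple curve lies farther right with a median of 1.57.

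Other genes of the pathway gave a mixed picture. Of 54 further replication and S phase genes 37 were measured, and with both treatments at day 14 there were 7 called higher and 1 lower (median 0.26). Atad2, a chromatin ATPase and E2F target, rose by 1.33 (SE 0.29, adjusted p = 0.00548), and E2f7, an inhibitory E2F, rose by 1.22 (SE 0.27, adjusted p = 0.00644). The lower one was Shmt1, the cytosolic enzyme that passes a one-carbon unit to folate for thymidylate synthesis, which fell by 1.87 (SE 0.22, adjusted p = 2.42e-05). With perchlorate alone 3 were higher and 1 lower, and with the diet alone 0 were called. Of all probe sets 8.85% were called with both treatments, 3.57% with perchlorate and 0.22% with the diet.

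Genes of mitosis and cytokinesis had larger log2 fold changes in the same arrays. Of 44 listed, 35 were measured and 27 rose with both treatments at day 14, 11 with perchlorate and 0 with the diet, with medians of 1.57, 1.06 and 1.07. Of all probe sets 8.85%, 3.57% and 0.22% were called there in either direction. With the diet all 35 were positive and the lowest adjusted p was 0.0515. An unadjusted p under 0.05 was found for 25 of them, against 1772 of all 18625 probe sets. The mitotic kinase gene Cdk1 rose by 2.12 with both treatments (SE 0.37, adjusted p = 0.000955) and was at 1.47 with the diet (adjusted p = 0.0903). Against the day 14 controls, the median shift of the mitosis genes was 1.99, 1.32 and 1.51 in replicates 27, 29 and 30, while that of the 38 replication genes was 0.538, 0.387 and 0.332. Replicate 27 was the highest of these 3 arrays in 28 of the 38 genes. No test of the difference between the 2 gene groups was made.

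Markers of other cells moved in the same arrays. With both treatments at day 14, 8 of 9 measured macrophage markers, 8 of 11 endothelial markers and 5 of 9 fibroblast markers were called higher. Of all 18625 probe sets 6.1% were called higher and 512 lower. The macrophage markers summed to 3990 to 5690 against 1500 to 1970 in the controls, the endothelial markers to 25900 to 28900 against 11300 to 15200, and the fibroblast markers to 32100 to 41600 against 18100 to 28300. The lymphocyte markers summed to 1740, 5240 and 1280 in replicates 27, 29 and 30 against 789 to 861, with 0 of 5 called. The follicular markers summed to 53500 to 54900 against 51100 to 53300, with 1 of 10 called higher and 1 lower. On the lower side, 3 of 6 C cell markers and 1 of 2 measured parathyroid markers (Casr, the calcium-sensing receptor, at -1.81) were called lower. The C cell markers summed to 16300 to 26100 against 29900 to 36000 and the parathyroid markers to 12300 to 17900 against 20800 to 21200. Of 7 measured adipocyte markers 0 were called and 6 were negative and without overlap (20.7% of all probe sets on the lower side). Their median was -1.68, and they summed to 2440 to 4210 against 5090 to 12200. The skeletal muscle markers, 0 of 11 called, summed to 5920 to 8280 against 5920 to 7980. The part of any of these cells in the replication results was not tested.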

How the data were processed

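The deposited values are linear intensity per probe set on 24 Affymetrix rat arrays, made by the authors; GCOS is named in the submitters' processing notes. Its version, algorithm settings and scaling target are not given in the sources used here. Values were taken as log2(intensity + 16) and quantile normalized. The 57 control probe sets were left out of 31099, and probe sets under the 40th percentile of mean signal were not tested, which left 18625. limma 3.58.1 in R 4.3.3 fitted 1 mean per group over all 24 arrays, with moderated variances (eBayes, intensity trend); tests are two-sided. Benjamini-Hochberg adjustment ran over all probe sets tested in each of 15 comparisons, and a call is an adjusted p under 0.05. The fit was run on simulated data with independent normal noise and the same SD in every group for each probe set. Groups of unequal spread and arrays that stand apart were not part of that simulation. Symbols came from the platform annotation, using probe sets with 1 symbol, and promoters from RefSeq. The precision is limited by 3 arrays per group.

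Genes described with array values were, by rule, the 2 of each role with the smallest p for both treatments at day 14, and those called in any comparison; values of Ccne2, Gmnn and Mcm7 were added after they were seen. Of the other lists, up to 3 genes with the smallest p could be named. The 43 genes and the other lists were chosen with earlier results of these data known. Alternatives were other normalizations, pseudocounts, filters, array weights, fits of only the groups compared, gene means and left-out arrays.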

Additional observations from a re-analysis of the deposited data

How the results depend on the processing

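The count of 9 genes called with both treatments at day 14 was 4 without quantile normalization, 5 with no filter on low values, 3 with a filter at the 60th percentile (20 of the genes measured) and 20 with array quality weights (19 higher), whose estimation stopped before full convergence. It was 8 to 13 under the other settings, and 1 to 10 when single arrays were left out. The share of all probe sets called under each setting is not given here. These counts therefore do not show whether calls changed for these genes in particular. For perchlorate at day 14 the count of 0 became 1 without quantile normalization, in a fit of only the groups compared, with array quality weights and without the 2 arrays that stood apart, and 0 to 1 with single arrays left out. For the diet over both days it became 1, 1 and 2 under the first 3 of these settings and 0 to 1 with single arrays left out. It became 1 with array quality weights for the diet at day 14 and for the difference of the combined effect between days, and 2 for both against diet in a fit of only those groups. With single arrays left out, Rpa2 ran from -0.189 to 0.0167 and Rpa3 from -0.176 to 0.08; the sign turned without replicate 30 of the combined treatment for both (Rpa3 0.0103) and without control replicate 43 for Rpa3, and neither was called. The cause of these changes was not tested, except that fewer arrays or more probe sets enter the test where arrays or the filter are left out. Of the 9 calls, that of Gins1 was kept under all 15 alternatives, and each other was lost under 2 to 8. No paired analysis was possible because the groups share no replicate numbers.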

Other observations

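Among the regulators of G1, which acts before the genes described above, 12 of 15 listed genes were measured and 1 was called with both treatments at day 14, a share of 8.33% that is near the 8.85% of all probe sets. The called gene was Cdkn2c, the inhibitor of cyclin D kinases p18, which rose by 0.86 (SE 0.20, adjusted p = 0.00735) and stood at 0.66 with perchlorate (adjusted p = 0.0688) and 0.58 with the diet (adjusted p = 0.258). Cyclin D1, Ccnd1, was at 0.53 (adjusted p = 0.207) and Mycn at -0.69 (adjusted p = 0.146). The median of the 12 genes was 0.12.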
